A study of Mus musculus with 13 samples.

Results

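Lysosomal hydrolases and membrane proteins were followed in ribosome footprints of mouse fibroblasts under endoplasmic reticulum (ER) stress. The 37 genes were chosen by symbol, with at least 2 TPM on average as the limit, out of 22406 symbols in the tables. They are 11 proteases, 10 glycosidases, 3 sulfatases, 4 lipid hydrolases, 3 cofactors and 6 membrane proteins. All 37 passed the limit in mouse embryonic fibroblasts (MEFs) and 34 passed it in NIH3T3 cells, where the cathepsin genes Ctsf, Ctsh and Ctsk were listed at 0 in the 3 libraries. The lowest means that passed were those of Ctsh in MEFs (2.404 TPM) and Manba in NIH3T3 cells (2.17 TPM). The 13 libraries are 1 per condition. They are PERK WT MEFs and PERK -/- MEFs, each untreated (control) or given thapsigargin (Tg) for 1, 2, 5 or 8 h, and NIH3T3 cells, an immortal mouse fibroblast line with intact PERK, as control or with Tg for 2 or 7 h. Tg, an inhibitor of the calcium pump of the ER, was used at a lower concentration in NIH3T3 cells than in MEFs, and no cycloheximide was added to any of the cells. Since no condition was repeated, replicate error is unknown for every difference below.

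Lysosomal enzymes are made by ribosomes on the ER, where a signal peptide starts their import and where they receive N-linked glycans and disulfide bonds. Most soluble enzymes then gain mannose 6-phosphate tags in the Golgi and are carried onward by mannose 6-phosphate receptors, while the membrane proteins follow sorting signals in their cytosolic tails. PERK is a kinase of the ER membrane that slows translation under ER stress through phosphorylation of eIF2α. TFEB and TFE3 are transcription factors that raise many lysosomal genes through a palindromic element around the letters CACGTG. Footprint levels hold both the amount of an mRNA and its translation, which are not told apart here, nor are fewer cells of a type from less RNA per cell.

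Total expected counts ran from 2525029 to 14799515 in the MEF libraries and from 2569965 to 11121006 in NIH3T3 cells, lowest after 2 h of Tg in WT MEFs and in NIH3T3 cells. A limit of 3 counts was equal to 0.203 to 1.19 CPM. As TPM are shares, each change is relative to the other genes of the library. Ddit3, a target of the PERK branch, had a log2 change of 4.30 to 5.39 in Tg-treated WT MEFs and of 0.26 to 1.04 in PERK -/- MEFs. Eif2ak3, the PERK gene, had 254 of 11949174 expected counts (6.03 TPM) in the WT control and 74 of 6735073 (11.2 TPM) in the PERK -/- control. In the library labelled PERK -/- it was thus higher in TPM but lower in counts per library total. Whether the deleted part lies in the counted sequence is not known. Of 10 fibroblast markers, 7 had at least 2 TPM in each NIH3T3 library, 7 to 9 in WT MEFs and 9 or 10 in PERK -/- MEFs. Col1a1 was at 269 to 2207 TPM in all libraries. Pdgfra was near 0 in the WT control (0.27 TPM against 8.26 in the PERK -/- control), and Dcn and Lum were at 0 in NIH3T3 cells. Macrophages are rich in lysosomes, and their defining markers Ptprc and Tyrobp were at or near 0 throughout. The 8 macrophage genes summed to 6.42 to 11.4 TPM in MEFs and 20.4 to 59.9 in NIH3T3 cells, where Lyz2 (12.4 to 48.5 TPM) made up most of the sum. In MEFs, Cd14 (4.30 to 7.97 TPM) made up most of it, and Cd68 reached 4.49 TPM in PERK -/- MEFs at 8 h. The 4 endothelial markers summed to 1.41 to 5.14 TPM and the 4 epithelial markers to 5.16 to 17.7 TPM.

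The 37 genes together took 0.843% of all TPM in untreated WT MEFs, 1.05% in untreated PERK -/- MEFs and 0.816% in untreated NIH3T3 cells. The tetraspanin Cd63 had the highest level in each of these libraries (2825, 2879 and 1650 TPM). In the WT control it was followed by Ctsl, a cysteine protease, with 900.8 TPM, Lamp1, the main glycoprotein lining the lysosomal membrane, with 820 TPM, and Psap, the precursor of the saposins that activate sphingolipid hydrolases, with 556 TPM. At the other end, Ctsf, Ctsh, Ctsk, Ctso and Idua had under 4 TPM in the WT control. Proteases were split on this scale, which corrects for length. In the WT control 7 of the 11 lay between 71.3 and 901 TPM and the other 4 at or below 3.33 TPM. The 10 glycosidases were in between, from 3.72 TPM for Idua to 67.9 TPM for Hexa.

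Promoter windows are shown for the letters CACGTG, which the choice by symbol did not use directly, though they are known from many lysosomal genes. Windows of 300 bases (250 before and 50 after the start site, RefSeq, GRCm38.p6) were found for 33 of the 37 genes. The letters CACGTG, which read the same on both strands, lay in the windows of 12 of them (36.4%), against 8.09% of 27025 genes with a window and 12.5% of the expressed ones. The longer core TCACGTGA, which contains CACGTG, was present in 4 (12.1%), against 1.12% and 2.49%. A gene with several windows was counted where any of them held the letters. The windows with the longer core, and that of Lamp1 with 4 copies of the shorter one, are given 5′ to 3′ on the strand of the gene, with these letters in capitals.
Ctsa, chr2:164833523-164833822, + strand: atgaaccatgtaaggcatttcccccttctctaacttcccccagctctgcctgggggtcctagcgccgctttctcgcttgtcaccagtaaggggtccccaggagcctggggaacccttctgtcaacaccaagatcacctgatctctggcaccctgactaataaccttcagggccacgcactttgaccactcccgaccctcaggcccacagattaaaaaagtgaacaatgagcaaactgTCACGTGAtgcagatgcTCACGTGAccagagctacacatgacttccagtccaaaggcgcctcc
Ctsd, chr7:142387778-142388077, - strand: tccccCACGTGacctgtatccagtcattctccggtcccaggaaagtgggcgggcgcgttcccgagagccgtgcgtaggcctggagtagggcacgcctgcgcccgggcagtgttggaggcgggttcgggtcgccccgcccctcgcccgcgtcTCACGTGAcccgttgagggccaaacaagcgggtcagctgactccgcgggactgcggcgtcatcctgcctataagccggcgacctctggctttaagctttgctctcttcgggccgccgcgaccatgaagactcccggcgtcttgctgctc
Gla, chrX:134600956-134601255, - strand: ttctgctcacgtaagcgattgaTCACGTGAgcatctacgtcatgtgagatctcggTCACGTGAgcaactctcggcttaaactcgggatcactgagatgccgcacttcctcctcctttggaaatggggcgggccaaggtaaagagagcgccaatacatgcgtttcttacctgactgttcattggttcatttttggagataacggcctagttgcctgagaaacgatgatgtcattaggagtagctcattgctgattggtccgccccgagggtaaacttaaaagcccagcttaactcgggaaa
Mcoln1, chr8:3500269-3500568, + strand: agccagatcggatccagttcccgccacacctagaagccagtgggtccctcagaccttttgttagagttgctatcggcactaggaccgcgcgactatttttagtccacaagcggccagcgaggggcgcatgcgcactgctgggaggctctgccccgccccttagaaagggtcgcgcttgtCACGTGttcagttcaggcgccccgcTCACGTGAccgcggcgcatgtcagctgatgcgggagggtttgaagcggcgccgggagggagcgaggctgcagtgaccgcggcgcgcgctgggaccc
Lamp1, chr8:13158911-13159210, + strand: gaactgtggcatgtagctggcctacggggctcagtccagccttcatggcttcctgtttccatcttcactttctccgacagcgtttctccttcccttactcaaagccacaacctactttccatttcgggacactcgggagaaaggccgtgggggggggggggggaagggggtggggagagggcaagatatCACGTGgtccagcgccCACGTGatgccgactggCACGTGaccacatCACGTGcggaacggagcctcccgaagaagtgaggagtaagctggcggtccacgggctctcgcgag
Counted from the start site as base 1, with the base before it as −1, the CACGTG copies of Ctsa begin close to it, at −12 and 6, whereas those of Gla begin at −227 and −194. Distances hold for the RefSeq start site of the window only. In GENCODE the Ctsa gene begins at 164832873, upstream of its window. In Lamp1 the 4 copies begin at −61, −45, −28 and −15. A match of letters is not a binding site, and whether it has a part in any change was not tested.

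In WT MEFs, the share of TPM in the 37 genes was 0.671%, 0.625%, 0.676% and 0.670% after 1, 2, 5 and 8 h of Tg, each below the 0.843% of the control. The median log2 change was −0.16, −0.32, −0.08 and −0.08, and that of the 10432 expressed genes 0, 0, 0 and 0.01. Of the 37 genes, 23, 26, 23 and 21 lay below their control value. With TMM factors, 28, 28, 27 and 26 did. Few were 2-fold apart from it. At 1 h Lamp1 was at least 2-fold down (background 2.29% of expressed genes) and Ctsk up (4.33%), the latter from 18 to 29 counts and from 1.54 to 8.16 TPM. At 2 h it was Asah1 alone (4.01% down) and 0 members up (5.66%). At 5 and 8 h 0 members passed 2-fold in either direction, against 3.55% down and 5.86% up, and 3.87% down and 6.45% up. At the 1.5-fold threshold there were 4, 6, 5 and 4 down (10.2%, 12.3%, 11.6% and 12%) and 2, 1, 2 and 2 up (12.8%, 15.3%, 16.7% and 17.8%), with Lamp1 down at all 4 times and Neu1 up at all 4. The exact conditional 95% interval of the counts, which covers counting error only, lay below 0 for 18, 21, 18 and 19 members at the 4 times (23.3%, 22.2%, 26.6% and 29% of expressed genes) and above 0 for 4, 2, 5 and 6 (28.4%, 28.6%, 35.4% and 40.4%). Members with higher counts were thus a smaller share than in the background, and those with lower counts a larger one. Genes with many counts have narrower intervals, and the background was not matched to the members for counts. With counts per library total, the median change of all expressed genes was 0.05 at 1 h and 0.10 at 8 h.

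**Figure D1:**
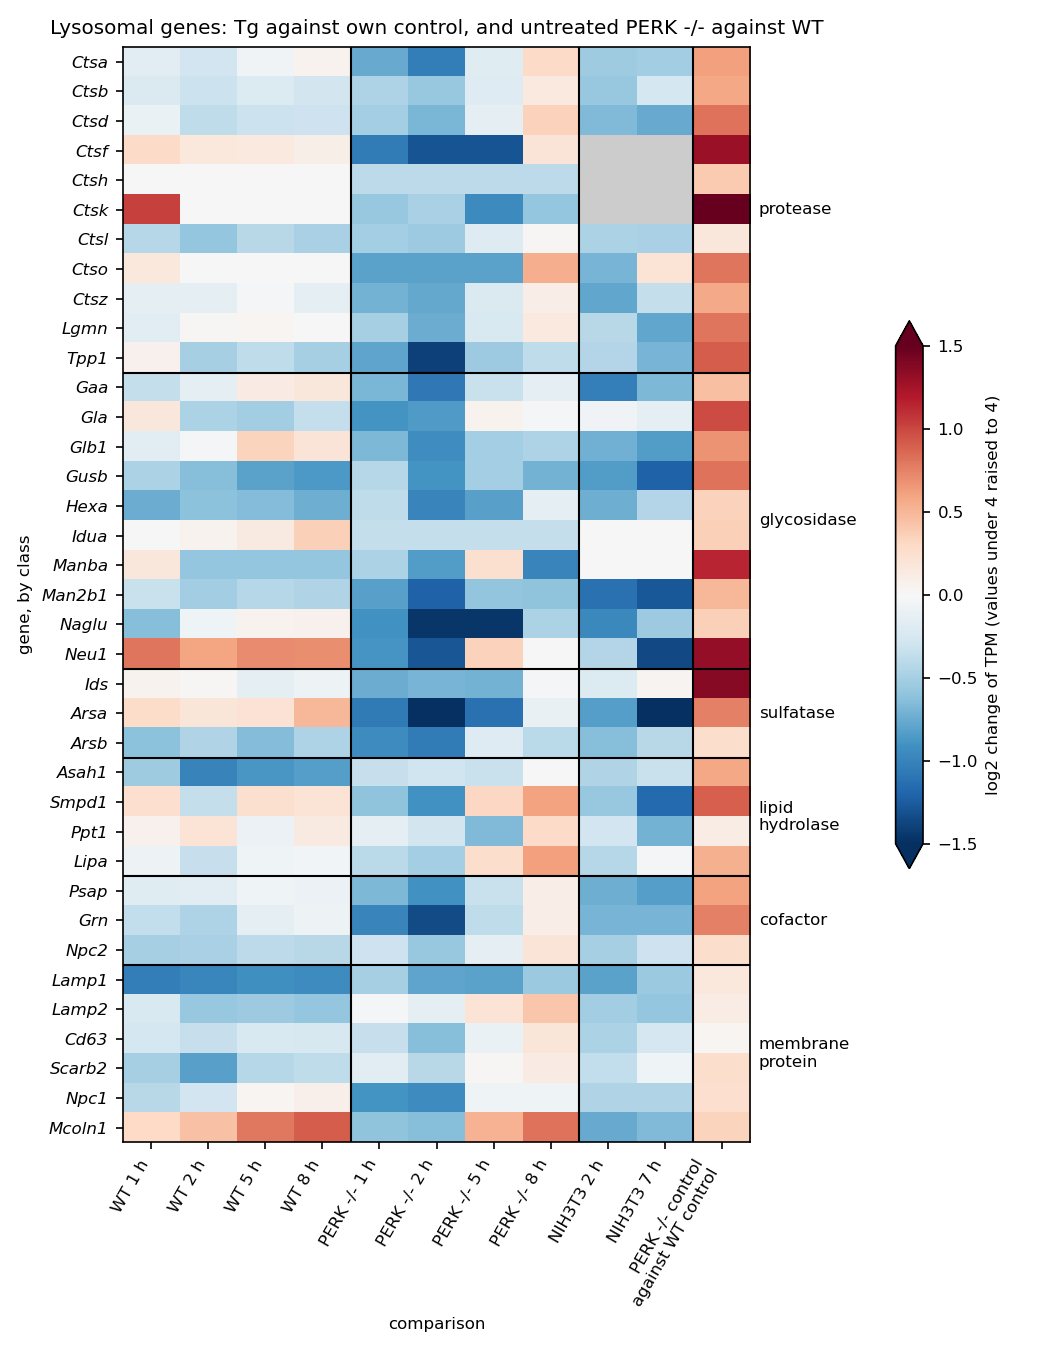
Log2 change of TPM of the 37 genes (rows, by class) in 10 Tg libraries against their own control and in the PERK -/- control against the WT control (columns), with 1 library per condition. Blue is lower and red higher, colours end at 1.5 in either direction, and grey marks the 3 cathepsin genes left out in NIH3T3 cells. The PERK -/- columns of 1 and 2 h are blue in all 37 rows (35 and 36 with TMM factors) and the right-hand column is red in all 37 (33 with TMM factors).

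Among the membrane proteins of WT MEFs, Lamp1 had the largest decrease at each time. Lamp1 (chromosome 8, 13159161 to 13175338, as all positions on GRCm38) had 820 TPM in the WT control and 399, 415, 434 and 425 TPM at 1, 2, 5 and 8 h. Its lowest level was that at 1 h, and the 4 Tg libraries were alike. It had 12007 counts in the control against 1781 after 1 h. Expressed as log2, the change was −1.04 after 1 h (95% interval of counts −1.10 to −0.95) and −0.95 after 8 h (−0.99 to −0.90). Lamp2, its close relative with a role in membrane fusion and autophagy, went from 420 TPM to 360, 284, 288 and 282 TPM, log2 changes of −0.22, −0.57, −0.55 and −0.58. Scarb2, the receptor that carries glucocerebrosidase to lysosomes, was lowest at 2 h, with 33.2 TPM against 58.6 in the control. Cd63 moved little, with changes between −0.34 and −0.23. Npc1, the cholesterol exporter of the limiting membrane, had a change of −0.42 at 1 h (−0.60 to −0.21), while its intervals at 5 and 8 h included 0.

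Mcoln1 went the other way in WT MEFs. It encodes TRPML1, the calcium channel of the lysosomal membrane, and lies on chromosome 8 from 3500457 to 3515232. Its TPM was 18.4 in the WT control and 22.7, 24.9, 31.9 and 34.6 at the 4 times, so each later library lay above the one before. The change was largest at 8 h, 0.91 on the log2 scale (95% interval of counts 0.73 to 1.09), which is 1.88-fold.

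Among the enzymes of WT MEFs, Asah1, the acid ceramidase, had the largest decrease. It lies on chromosome 8 from 41340197 to 41374773 and had 248 TPM in the control and 171, 123, 135 and 140 TPM with Tg. At 2 h its log2 change was −1.01 (−1.16 to −0.84). The glycosidases Gusb (β-glucuronidase) and Hexa (the α subunit of β-hexosaminidase) were lower at each time, Gusb by a log2 change of −0.48 to −0.86 and Hexa by −0.61 to −0.74. Neu1, the lysosomal sialidase (chromosome 17, 34931253 to 34935953), was higher at each time instead, with 14.4 TPM in the control and 25.1, 21.7, 23.4 and 23.2 TPM with Tg. Its counts were few (68 at 2 h), and its change at 1 h was 0.81 (0.48 to 1.16). Ctsa, the carboxypeptidase that holds Neu1 and β-galactosidase in a complex, did not share this pattern, with changes between −0.29 and 0.06.

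**Figure D2:**
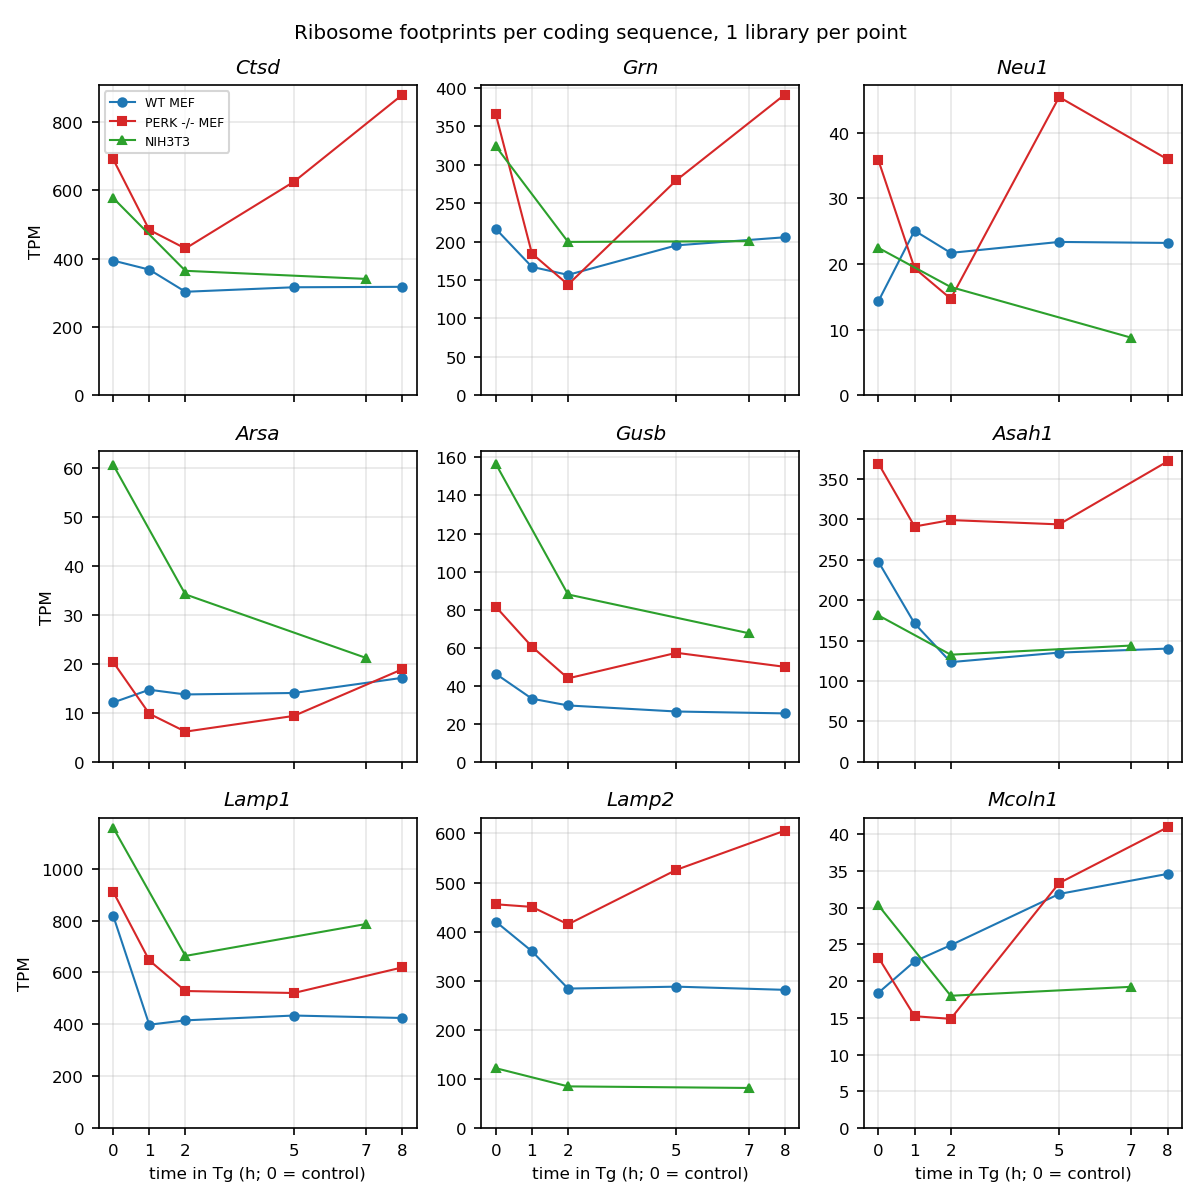
TPM of 9 members against time in Tg (h, 0 is the control) in WT MEFs, PERK -/- MEFs and NIH3T3 cells, with 1 library per point and each vertical axis starting at 0. Lamp1 has about the same level in the 4 Tg libraries of WT MEFs, while Ctsd, Grn, Neu1 and Arsa have their lowest PERK -/- value at 2 h and higher ones at 5 and 8 h.

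In PERK -/- MEFs all 37 genes were below their control at 1 h and at 2 h. The median log2 change was −0.60 at 1 h and −0.80 at 2 h, with −0.06 and −0.11 over all expressed genes, and the share of TPM went from 1.05% to 0.764% and 0.659%. At 1 h, Ctsf and Arsa were at least 2-fold down (background 3.38%), and 0 were up (0.719%). At 2 h there were 10, namely Ctsa, Ctsf, Tpp1, Gaa, Man2b1, Naglu, Neu1, Arsa, Arsb and Grn, which is 27.0% of the members against 5.78% of expressed genes, and again 0 up (0.623%). At the 1.5-fold threshold 19 and 26 were down at 1 and 2 h (13.4% and 18.8%) and 0 up (3.76% and 3.57%). Count intervals lay below 0 for 34 members at 1 h and 36 at 2 h, against 32.9% and 37.5% of expressed genes. With TMM factors Lamp2 lay above its control at both times and Ppt1 at 1 h, and with DESeq2 size factors Lamp2 at both times. The median over all expressed genes at 2 h was then 0.03 and 0.00, shifts of 0.14 and 0.11. Fibroblast markers that passed the limit, collagens among them, were lower at these times as well (medians −0.81 and −1.35 over 9 genes), and their part in the result was not tested.

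Arsa, the arylsulfatase that degrades sulfatide (chromosome 15, 89472476 to 89477425), had the largest decrease of the 37 at 2 h. It had 20.4 TPM in the PERK -/- control and 9.80, 6.14, 9.35 and 18.9 TPM at 1, 2, 5 and 8 h. The change at 2 h was −1.73 (95% interval of counts −1.97 to −1.34), from 212 to 148 counts in a library with more reads. Naglu, which removes N-acetylglucosamine from heparan sulfate, had a change of −1.46 at 2 h and at 5 h, though both values there were raised to the limit of 4 TPM. Tpp1, a tripeptidyl peptidase, had 133 TPM in the control and 50.4 TPM at 2 h. Grn, the progranulin gene (chromosome 11, 102430315 to 102437048), went from 366 TPM to 184 and 144 TPM, at 2 h a change of −1.34 in TPM and of −1.27 in counts per library total (95% interval −1.33 to −1.21). Psap, with which progranulin travels to lysosomes, had a change of −0.90 at 2 h. Ctsd, the main aspartic protease (chromosome 7, 142375911 to 142388038), went from 691 TPM to 484 and 429 TPM. Neu1, higher in WT MEFs, went here from 35.8 TPM to 19.4 and 14.7 TPM. The smallest decreases at 2 h were those of Lamp2 (−0.14), Ppt1 (−0.27), which removes palmitate from proteins, and Asah1 (−0.30).

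At 5 and 8 h most levels in PERK -/- MEFs were higher again. The median change was −0.33 at 5 h, with 29 of 37 genes below the control, and 0.01 at 8 h, with 17 below and 20 above. The share of TPM was 0.905% and 1.13%. At 5 h, Ctsf, Naglu and Arsa were at least 2-fold down (4.77%) and 0 up (3.26%), and at 8 h 0 members in either direction (2.73% down and 3.28% up). Count intervals at 5 h lay below 0 for 27 members (30.1%) and above 0 for 5 (29.7%), and at 8 h for 13 (22.8%) and 13 (31.7%). At the 1.5-fold threshold 10 were down at 5 h (12.8%) and 0 up (10.6%). At 8 h, Smpd1, Lipa and Mcoln1 were up at 8 h (12.5%) and Gusb, Manba and Man2b1 down (8.22%). Lipa, the acid lipase, went from 67.0 TPM to 47.0 at 2 h and 103 at 8 h, and Smpd1, the acid sphingomyelinase, from 20.2 to 10.8 and 30.7. Mcoln1 had 23.2 TPM in the control, 15.2 and 14.9 at 1 and 2 h, and 33.3 and 40.9 at 5 and 8 h. Its change of 0.82 at 8 h (0.60 to 1.02) overlapped the interval of WT MEFs. Lamp1 did not return, with 912 TPM in the control and 647, 529, 521 and 620 TPM with Tg, whereas Lamp2 went from 456 to 606 TPM at 8 h.

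All 4 PERK -/- Tg libraries were set against the same control library, and so was the comparison of genotypes without Tg. There, the PERK -/- control was above the WT control in 37 of 37 genes, with a median log2 difference of 0.58 against 0.08 over all expressed genes. At least 2-fold higher were Ctsf, Ctsk, Manba, Neu1 and Ids (background 6.04%), and 0 were 2-fold lower (1.97%). Count intervals lay above 0 for 35 members (39.6%) and below 0 for none (20.9%), and 17 were at least 1.5-fold higher (16.1%). Ctsk, a collagen-degrading protease best known from osteoclasts, differed most, with 39.9 TPM and 261 counts in the PERK -/- control and 1.54 TPM and 18 counts in the WT control. Membrane proteins differed least (median 0.21, from 0.03 for Cd63 to 0.33 for Mcoln1), and proteases most (0.80). With TMM factors, Ppt1, Lamp1, Lamp2 and Cd63 were lower in the PERK -/- control, and with DESeq2 size factors Ppt1, Lamp2 and Cd63. The median over all genes moved by −0.11 under TMM factors. The control was also replaced by the PERK -/- library of 8 h, with more of its TPM in the members (1.13% against 1.05%). Lower values at 1 and 2 h were thus likely in advance, and no conclusion is drawn from them. With the PERK -/- library of 8 h as the reference, a setting chosen after seeing the data, 31 of 37 genes were lower at 1 h (median −0.54, all expressed genes −0.14) and 33 of 37 at 2 h (−0.82 and −0.18).

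Levels of the genotypes can also be set side by side at each time, which uses no control library. At 1 and 2 h of Tg, members lay on either side of an equal level. The median log2 difference of PERK -/- minus WT was 0.09 at 1 h, with 25 genes higher and 10 lower, and −0.01 at 2 h, with 16 higher and 19 lower and a range from −1.16 to 2.83. At 2 h, Ctsk and Asah1 were at least 2-fold higher (6.36%) and Naglu and Arsa lower (9.96%). The median was 0.48 at 5 h, with 28 higher, and 0.80 at 8 h, with 34 higher, while all expressed genes had medians of 0.00, −0.01, 0.01 and 0.09. At 8 h, 11 members were at least 2-fold higher in PERK -/- MEFs (10.1% of expressed genes) and 0 lower (5.62%). Ctsd had 317 TPM in WT and 878 TPM in PERK -/- MEFs, Grn 206 and 391 TPM, Asah1 140 and 372 TPM, and Lamp2 282 and 606 TPM at that time. By class, the 8 h medians were 1.24 for lipid hydrolases, 0.99 for proteases, 0.88 for cofactors, 0.50 for membrane proteins, 0.50 for glycosidases and 0.32 for sulfatases.

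**Figure D3:**
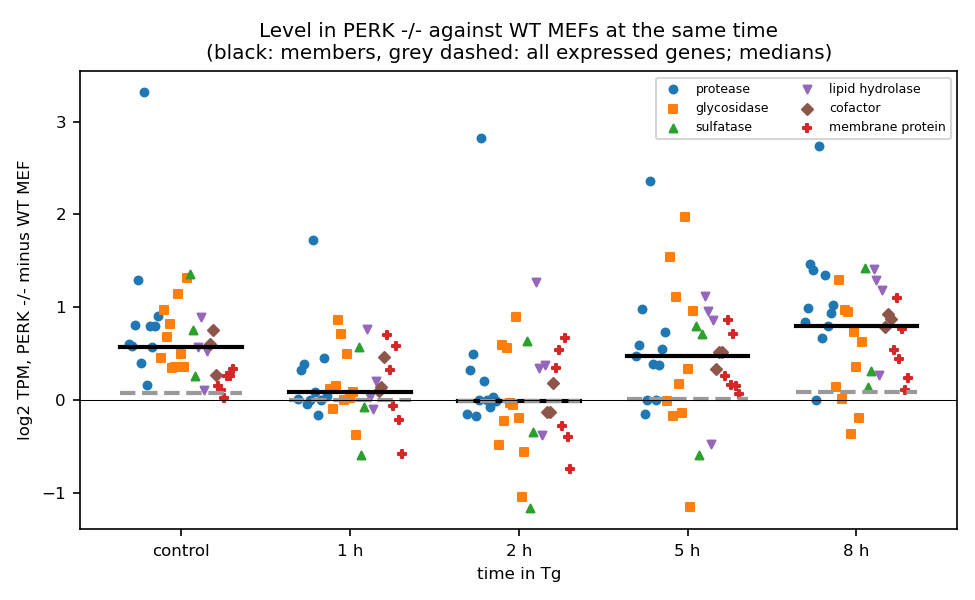
Log2 TPM in PERK -/- MEFs minus that in WT MEFs for each of the 37 genes (symbols by class) without Tg and at 1, 2, 5 and 8 h. Black lines are the members' medians (0.58, 0.09, −0.01, 0.48 and 0.80) and grey dashed lines those of all expressed genes, which stay between −0.01 and 0.09.

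Changes from each genotype's own control were compared gene by gene through their count intervals. At 1 h, the PERK -/- interval lay wholly below that of WT MEFs for 20 members (background 24.4%), and at 2 h for 20 (27.4%). It lay above for 3 at 1 h (15.8%), Asah1, Lamp1 and Lamp2, and for 4 at 2 h (17.1%), these and Scarb2. At 2 h the change of these 4 was thus lower in WT MEFs, and that of 20 other members lower in PERK -/- MEFs. Arsa, 1 of the 20, was not below its control in WT MEFs (0.18). The PERK -/- control lay above the WT control in 37 of 37 genes. A lower change in PERK -/- MEFs can thus not be told apart from a high value of that 1 control library. At 5 h, 11 were below (25.6%) and 12 above (19.8%), and at 8 h 6 were below (23.2%) and 14 above (21.1%). The 6 at 8 h, a smaller share than the background, were Gaa, Glb1, Idua, Naglu, Neu1 and Arsa. Of these, Idua had only 28 counts in PERK -/- MEFs at that time. The median of the PERK -/- change minus the WT change was −0.41, −0.55, −0.17 and 0.16 at the 4 times, against −0.09, −0.19, −0.04 and 0.00 over all expressed genes.

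In NIH3T3 cells, whose PERK is intact, the members were lower at both times. Their share of TPM went from 0.816% to 0.540% at 2 h and 0.574% at 7 h. The median log2 change of the 34 genes was −0.55 at 2 h, with 32 below the control and 0 above, and −0.53 at 7 h, with 30 below and Ctso and Ids above. The 10117 expressed genes had medians of −0.13 and 0. At 2 h, Gaa and Man2b1 were at least 2-fold down (3.76%) and 0 up (5.76%), but 0 were down and 1 up with TMM factors, DESeq2 size factors, counts per library total or thinned counts. At 7 h, Gusb, Man2b1, Neu1, Arsa and Smpd1 were down (8.06%) and 0 up (7.01%). Count intervals were below 0 for 27 members at each time (29.1% and 41.2%) and above 0 for Manba at each (24.1% and 31.7%), which had 0.79 TPM in the control and 2.49 and 3.22 TPM with Tg, from 18 counts to 16 and 36. At the 1.5-fold threshold 15 and 14 were down (18.2% and 20.1%) and 0 up (12% and 16.7%). Arsa went from 60.6 TPM to 34.2 and 21.2 TPM, at 7 h a change of −1.52 from 1138 to 206 counts. Neu1 had 22.5, 16.5 and 8.78 TPM, and Mcoln1 30.3 TPM in the control and 19.2 at 7 h, so both lay below the control here and above it in WT MEFs. Lamp1 went from 1159 to 664 and 787 TPM, and Gusb from 157 to 87.9 and 67.6 TPM. Fibroblast markers were lower too (medians −0.72 and −0.82 over 7 genes), Lyz2 had 46.8, 48.5 and 12.4 TPM in the 3 libraries, and the part of either in the result was not tested. With DESeq2 size factors the members' median at 2 h was −0.39, when that of all genes was −0.02, and Gla, Idua and Manba lay above the control.

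The medians of cathepsins and other proteases, of glycosidases and of membrane proteins differed. The median GC content of their coding sequences differed too, at 52.6%, 54.1% and 49.9%. Its part in the order of the classes was not tested. In WT MEFs, the medians of the 6 membrane proteins were −0.34, −0.45, −0.33 and −0.31 at 1, 2, 5 and 8 h, those of the 10 glycosidases −0.25, −0.30, −0.19 and −0.15, and those of the 11 proteases −0.10, −0.13, −0.03 and 0. In PERK -/- MEFs, glycosidases had −0.68, −0.96, −0.43 and −0.41, lower than proteases and membrane proteins at each time, and 9 of 10 were still below the control at 8 h. With the 8 h library as reference, their medians at 1 and 2 h were −0.23 and −0.72. Glycosidases were then less lowered than proteases and membrane proteins at 1 h, and less than proteases at 2 h. As glycosidases were the lowest of these classes at 8 h, this was likely in advance, and no conclusion is drawn from it. Against the PERK -/- control, proteases had −0.56, −0.75, −0.23 and 0.14, with 8 of 11 above it at 8 h. Membrane proteins had −0.42, −0.64, −0.02 and 0.15. In NIH3T3 cells, the medians at 2 and 7 h were −0.73 and −0.61 for glycosidases, −0.55 and −0.50 for the 8 proteases, and −0.50 and −0.50 for membrane proteins. Of the smaller classes, the 3 sulfatases stood at −0.95 and −1.05 in PERK -/- MEFs at 1 and 2 h, the 3 cofactors at −0.68 and −0.90, and the 4 lipid hydrolases at −0.37 and −0.41. The lipid hydrolases reached 0.45 at 8 h, with all 4 above the control. No test of these class differences was made, since the genes of a class are not replicates. Ctsf, Ctsh, Ctsk, Ctso, Idua, Manba and Naglu had values under 4 TPM in some libraries, so the medians understate their changes.

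**Figure D4:**
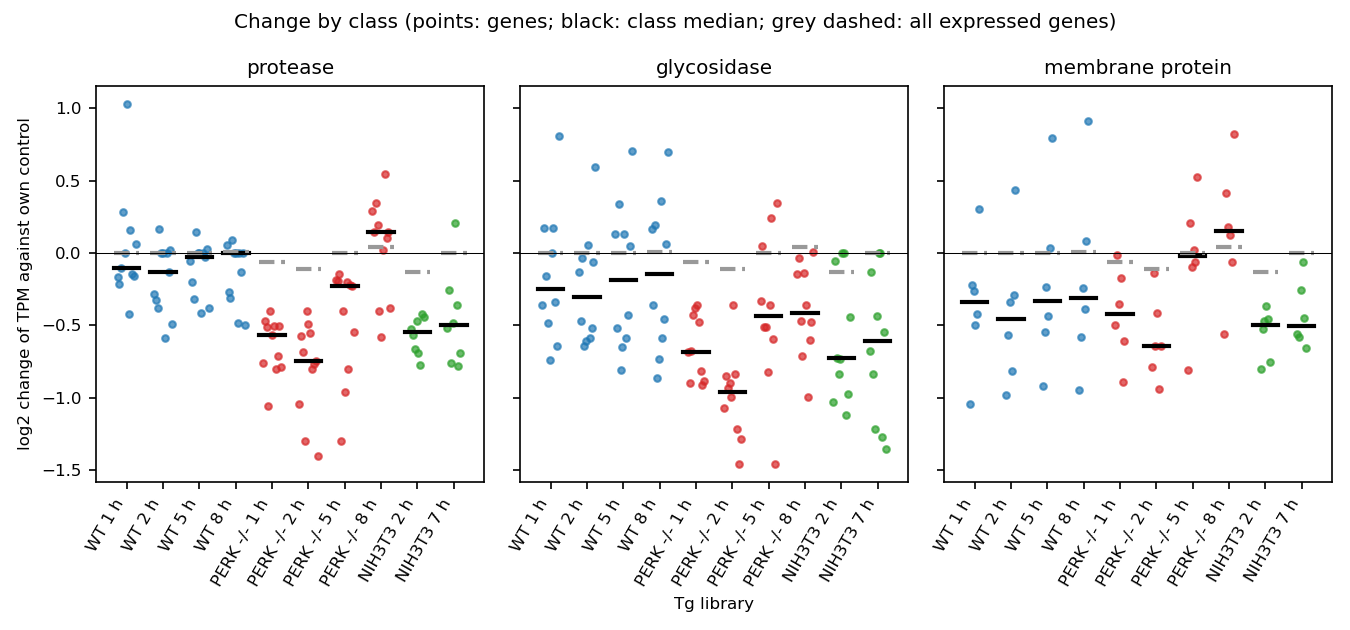
Log2 change of TPM against the own control in 10 Tg libraries for proteases, glycosidases and membrane proteins, with 1 point per gene, black lines for class medians and grey dashed lines for all expressed genes. In PERK -/- MEFs at 2 h the class medians are −0.75, −0.96 and −0.64, and at 8 h they are 0.14, −0.41 and 0.15.

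The proteins share features that the choice by symbol did not use directly, though the import and glycosylation described above go with them. Of the 37, 34 have a hydrophobic N terminus (91.9%), that is, some stretch of 8 amino acids among the N-terminal 30 averages 2.2 or more on the Kyte-Doolittle scale, against 16.9% of 10019 expressed genes with a coding sequence. N-glycosylation sequons had a median of 4 per protein and 0.957 per 100 residues, against 2 and 0.392, and reached 19 in Lamp1, 17 in Lamp2 and 21 in Npc1. Expressed genes outside the group with a hydrophobic N terminus gave smaller median decreases at the times when the members were lowest. The 1663 such genes in MEFs had medians of −0.22 and −0.38 in PERK -/- MEFs at 1 and 2 h and of −0.08 in WT MEFs at 2 h, and 13.0% of them were at least 2-fold down in PERK -/- MEFs at 2 h. At 8 h, when 0 members were 2-fold down, 7.70% of them were in WT MEFs and 5.83% in PERK -/- MEFs. In the PERK -/- control they were higher by 0.19 at the median. In NIH3T3 cells the 1527 such genes had medians of −0.28 and −0.17 at 2 and 7 h.

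GC content of the coding sequence moved with the members' changes in some libraries. Across the 37 genes, which share a library and its depth, Spearman's rho of GC content with the change was −0.60 and −0.70 in PERK -/- MEFs at 1 and 2 h, and −0.21 and −0.14 at 5 and 8 h. In WT MEFs it was 0.11, 0.41, 0.53 and 0.48 at the 4 times, and over 34 genes in NIH3T3 cells −0.50 and −0.47. Across all expressed genes it was −0.37, −0.47, −0.08 and −0.02 in PERK -/- MEFs, 0.25, 0.36, 0.41 and 0.46 in WT MEFs, and −0.10 and −0.06 in NIH3T3 cells. The median GC content was 53.0% in the members and 52.8% in all expressed genes, with Neu1 (60.6%) and Naglu (60.2%) at the upper end and Lamp2 (42.2%) and Asah1 (42.8%) at the lower. With a trend on GC content removed, 37 of 37 genes were below the control in PERK -/- MEFs at 1 and 2 h. At least 2-fold down were then 0 at 1 h, in place of Ctsf and Arsa, and 6 in place of 10 at 2 h. Whether GC content has a part in the changes was not tested.

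Other genes of the lysosome were taken from lists by role. The 10 genes of sorting and activation had medians of −0.55, −0.28, −0.20 and −0.18 in WT MEFs at 1, 2, 5 and 8 h, with 9, 7, 7 and 6 below the control. M6pr, the cation-dependent mannose 6-phosphate receptor, had 139 TPM in the WT control and 86.4, 56.0, 72.3 and 62.3 TPM with Tg. In PERK -/- MEFs it had 137 TPM and then 148, 135, 153 and 192 TPM, so it was not lowered there. Igf2r, the cation-independent receptor, was lowered in both, from 75.2 to 38.0 TPM at 8 h in WT and from 73.2 to 27.9 TPM in PERK -/- MEFs. Gnptab, which encodes subunits of the phosphotransferase that makes the tag, had 8.06 TPM in the WT control and 3.98 at 8 h. In NIH3T3 cells the changes at 7 h were −1.04 for M6pr, −0.96 for Igf2r and −1.19 for Gnptab.

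The 22 further hydrolases expressed in MEFs followed the members, with medians of −0.10, −0.32, −0.21 and −0.11 in WT MEFs and −0.48, −0.70, −0.26 and −0.03 in PERK -/- MEFs. On the TPM scale, all 22 were below the control in PERK -/- MEFs at 1 and 2 h. Galc, the galactocerebrosidase, had 19.1 TPM in the WT control and a log2 change of −0.93 at 2 h. Ggh, which trims polyglutamate from folates, had 16.2 TPM and 10.4 at 8 h. Of the 15 further membrane proteins, Hgsnat, an acetyltransferase of heparan sulfate breakdown, was lowered most, with 17.8 TPM in the WT control and 9.69, 7.35, 6.47 and 4.82 TPM with Tg. Ctns, the cystine exporter, was higher at 8 h, with 12.4 and 26.1 TPM in WT and 17.1 and 41.4 TPM in PERK -/- MEFs. Clcn7, a chloride-proton exchanger, had 19.9 and 34.5 TPM in WT MEFs, with no such difference in PERK -/- MEFs (26.2 and 26.4 TPM).

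Subunits of the V-ATPase, the proton pump that acidifies lysosomes, were not lowered as a group in WT MEFs. The medians of its 16 genes were −0.05, 0.03, 0.21 and 0.28 at the 4 times, and −0.32, −0.46, −0.06 and 0.45 in PERK -/- MEFs. Atp6v0c, of the membrane ring, had 397 TPM in the WT control and 542, 678, 667 and 776 TPM with Tg. In PERK -/- MEFs it had 568 TPM and then 416, 330, 712 and 954 TPM. Atp6v1f had a WT change of 0.81 at 8 h and Atp6v0e of 0.62. In the list of TFEB and its regulators, Tfe3 had 19.5 TPM in the WT control and 29.4, 37.3, 38.7 and 42.9 TPM with Tg, while in PERK -/- MEFs it had 16.4 to 19.6 TPM up to 5 h and a change of 0.82 at 8 h. Flcn, a brake on TFE3 that acts with the Rag GTPases, had 9.60 TPM in the WT control and 20.5 at 8 h, and Rragc, one of these GTPases, 72.6 and 60.4. Tfeb itself was low, between 2.03 and 4.66 TPM in MEFs.

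**Figure D5:**
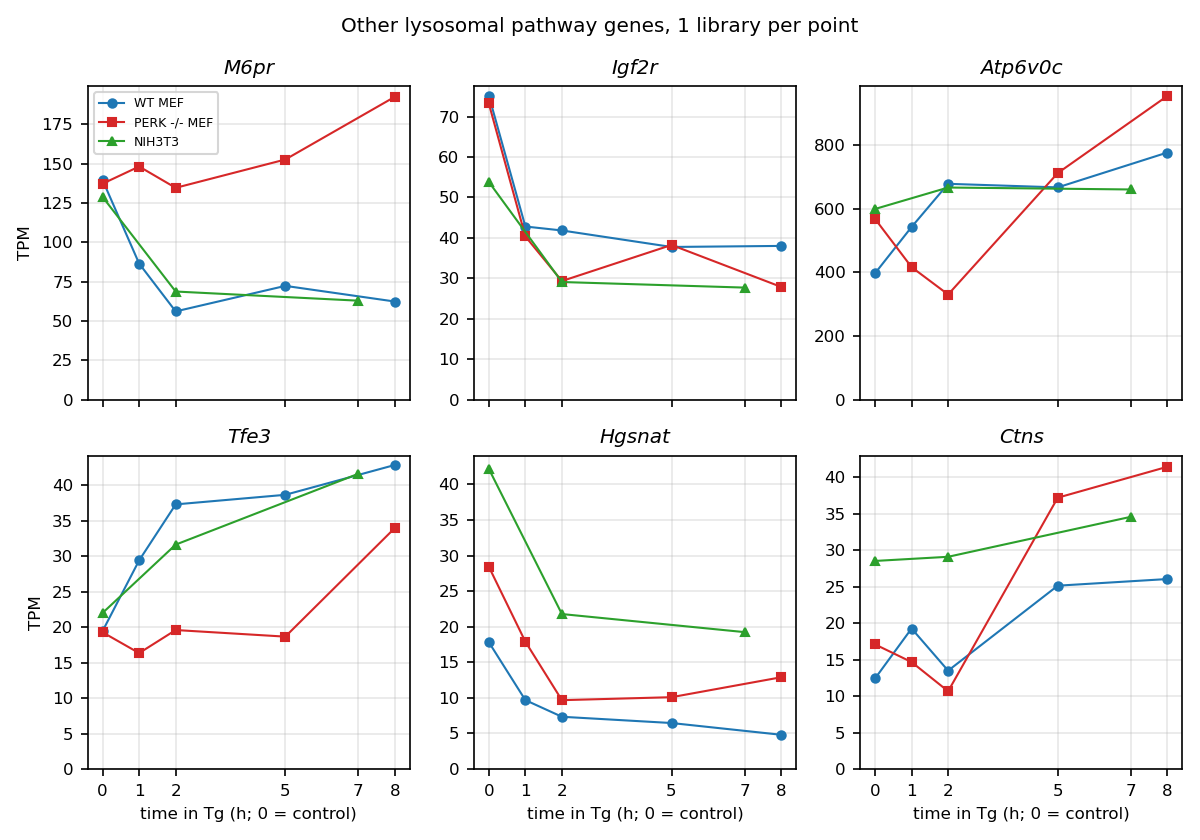
TPM of 6 other lysosomal genes against time in Tg (h, 0 is the control) in WT MEFs, PERK -/- MEFs and NIH3T3 cells, with 1 library per point and each vertical axis starting at 0. M6pr is lower with Tg in WT MEFs (56.0 to 86.4 TPM, control 139) and not in PERK -/- MEFs, while Igf2r and Hgsnat are lower in all 10 Tg libraries and Tfe3 is higher in the 4 Tg libraries of WT MEFs.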

How the data were processed

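Ribosome footprints of 13 libraries were used, 5 of PERK WT MEFs, 5 of PERK -/- MEFs and 3 of NIH3T3 cells, 1 per condition. Per the labels and the study's methods, reads of rRNA and tRNA were filtered out with STAR, and footprints between 22 and 34 nt long were mapped by Bowtie2 to mm10 RefSeq coding sequences lacking their outer 30 nt on both sides, without transcripts shorter than 100 nt. RSEM then gave the values, and versions are not given in the sources used here. The deposited expected counts were whole numbers, unscaled between libraries, and were used as they stand. The deposited TPM values are scaled to the sum of each library by RSEM.

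The measure was the log2 ratio of TPM between a Tg library and the control of the same cells, with values under 4 raised to 4, which understates changes of low genes. The background was all genes averaging 2 TPM or more in the MEF (10432) or NIH3T3 libraries (10117). Called means at least 2-fold, or 1.5-fold where stated. Intervals are exact conditional (Clopper-Pearson) 95% intervals of the ratio of counts per library total and cover counting error only. No test between conditions was made. The calculation was tested on simulated data.

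The members and lists were chosen with earlier results of these data known. Named beside the members were, in each other list, the 3 genes with the largest change in WT MEFs at 8 h among those with at least 100 counts. The result of 1 of these genes is not reported here. Tfeb, outside this rule, was named after its values were seen. Gene positions and features of coding sequences and proteins were read from GENCODE on GRCm38 (mm10), which covered 37 of 37 members and 96.0% of the genes expressed in MEFs. Promoters came from RefSeq (GRCm38.p6).

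Alternatives were a floor or a pseudocount of 1 TPM, a mean TPM of at least 5, no filter, TMM factors, DESeq2 size factors, counts per library total, thinned counts and a 1.5-fold threshold. Added after seeing the data were the removal of a lowess trend on GC content (fraction 0.3) and the 8 h library as reference. For scaled counts, 0.5 was added before the log2. The tools were DESeq2 1.42.0 and edgeR 4.0.16 under R 4.3.3, and scipy 1.17.1, pandas 2.3.3, numpy 2.4.6, matplotlib 3.10.9 and statsmodels 0.14.6 under Python 3.11.15.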

Additional observations from a re-analysis of the deposited data

Results flagged for a closer look

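Arsa, the arylsulfatase A gene, lay above its control in all 4 Tg libraries of WT MEFs and below it in all 4 of PERK -/- MEFs. In order of time in Tg, the log2 changes of WT MEFs were 0.28, 0.18, 0.21 and 0.50. Those of PERK -/- MEFs were −1.05, −1.73, −1.12 and −0.11. The difference between the genotypes was not tested, since each condition is 1 library. The counts behind these values were 224 in the WT control and 54 to 297 with Tg, and 212 in the PERK -/- control and 119 to 216 with Tg. The 95% count intervals in WT MEFs included 0 at 1, 2 and 5 h, and so did that of PERK -/- MEFs at 8 h. In NIH3T3 cells, whose PERK is intact, Arsa was also below its control, by −0.83 at 2 h and −1.52 at 7 h. All 37 members were searched for opposite signs at all 4 times, and Arsa alone was flagged. The share of expressed genes meeting this rule was not computed. The coding sequence of Arsa has 59.3% GC. Across all expressed genes, rho of GC content with the change was 0.25 to 0.46 in WT MEFs. In PERK -/- MEFs it was −0.37, −0.47, −0.08 and −0.02 at the 4 times. The part of GC content was not tested.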

How the results depend on the processing

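Over the 9 alternatives that apply to it in every comparison, the median log2 change of the members stayed below 0 in every comparison with Tg except in PERK -/- MEFs at 8 h, where it ran from −0.09 to 0.02. It ran from −0.68 to −0.53 and from −0.89 to −0.67 in PERK -/- MEFs at 1 and 2 h, from −0.24 to −0.13, −0.40 to −0.26, −0.21 to −0.04 and −0.20 to −0.0027 in WT MEFs at 1, 2, 5 and 8 h, from −0.57 to −0.39 and −0.55 to −0.41 in NIH3T3 cells, and from 0.45 to 0.60 between the controls. With 1 library per condition, no replicate could be left out. No paired analysis was possible because each condition has 1 library and the labels number no replicates. Where a value below moved for another reason than its threshold or floor, the cause was not tested.

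At the 1.5-fold threshold, WT MEFs had 4, 6, 5 and 4 members down and 2, 1, 2 and 2 up at 1, 2, 5 and 8 h, PERK -/- MEFs 19, 26, 10 and 3 down and 3 up at 8 h, NIH3T3 cells 15 and 14 down, and the PERK -/- control 17 up. With values under 1 TPM raised to 1, there were 2 up at 1 h and 2 down at 2 h in WT MEFs, 5, 5 and 1 down in PERK -/- MEFs at 1, 5 and 8 h, and 1 up at each time in NIH3T3 cells. With a pseudocount of 1 TPM, 2 were up at 1 h and 0 down at 2 h in WT MEFs, 5 and 1 down in PERK -/- MEFs at 5 and 8 h, and 1 up in NIH3T3 cells at 7 h.

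TMM factors and DESeq2 size factors both gave 2 up at 1 h and 3, 1 and 1 down at 2, 5 and 8 h in WT MEFs, 5 and 3 down in PERK -/- MEFs at 5 and 8 h, and 0 down at 2 h and 1 up at each time in NIH3T3 cells. The glycosidase median in PERK -/- MEFs at 2 h was −0.76 with TMM and −0.79 with DESeq2 factors. The members' median in NIH3T3 cells at 2 h was −0.43 with TMM, −0.39 with DESeq2 factors and −0.43 with counts per library total, and with DESeq2 factors those of proteases and membrane proteins were −0.39 and −0.34. Counts per library total gave 2 up at 1 h and 0 down at 2 h in WT MEFs, 4, 5 and 2 down in PERK -/- MEFs at 1, 5 and 8 h, and 0 down at 2 h and 1 up at each time in NIH3T3 cells.

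Thinned counts gave 3, 1 and 2 up at 1, 2 and 8 h and 2 down at 2 h in WT MEFs, 4, 6 and 2 down in PERK -/- MEFs at 1, 5 and 8 h, 0 down at 2 h and 1 up at each time in NIH3T3 cells, 9 up in the PERK -/- control, and a protease median of −0.15 in PERK -/- MEFs at 5 h. With the GC trend removed, 0 were down in WT MEFs at 2 h, 0, 6 and 1 in PERK -/- MEFs at 1, 2 and 8 h, and 1 in NIH3T3 cells at 2 h. With the PERK -/- library of 8 h as reference, 7 were down at 1 h, and the glycosidase medians were −0.23 and −0.72 at 1 and 2 h.

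Among members whose count interval excluded 0, the sign turned in 9 cases. Signs of members whose interval included 0, such as Ppt1 in PERK -/- MEFs at 1 h and Gla in NIH3T3 cells at 2 h, turned as well and are not counted here. With the GC trend removed, Gaa was at −0.18 in WT MEFs at 5 h and at −0.18 at 8 h, and Idua at −0.10 at 5 h. Lamp2 in PERK -/- MEFs at 2 h was at 0.085 with TMM and 0.057 with DESeq2 factors, and Psap at 8 h at −0.00562 with TMM factors. Between the controls, Lamp1 was at −0.0075 with TMM factors and Lamp2 at −0.044 with TMM and −0.028 with DESeq2 factors. Depth limits the low members, since 3 counts were up to 1.19 CPM.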
